A study of Homo sapiens with 4 samples.

Results

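The genes KLF5, YWHAG, DKK1, SIRT1, EZH2, DNMT1, E2F3, MTDH, RUNX2 and FOXO3 have been described as targets of miR-217, the first 3 of them in the paper's own discussion and the others in work on other tissues. They were chosen by name, and all 10 were among the 32955 genes of the deposited expression table. RNA-seq had been carried out on 4 libraries of MDA-MB-231, a human triple-negative breast cancer line. The paper states that its cell lines were grown in DMEM or RPMI medium with fetal bovine serum. In the mimic NC group (n = 2) the cells were transfected with a negative control oligonucleotide, and in the miR-217 mimic group (n = 2) with a synthetic RNA that stands in for miR-217. Both groups thus share the cell line and the transfection, and the dose and the time of harvest were not given in the sources used here. Each group has a replicate 1 and a replicate 2, but the labels do not say whether these were separate cultures, so that p-values measure only the spread between these libraries. The libraries held 32635814 (miR-217 mimic replicate 2) to 57933183 (mimic NC replicate 1) reads on genes.

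A microRNA guides the silencing complex to an mRNA mainly through its seed, bases 2 to 8, which pairs with a short match in the 3'UTR of the target. The mRNA is then destabilised or translated less, usually to a modest degree, and only the first of these is visible to RNA-seq. The described targets span several functions. KLF5, E2F3, RUNX2 and FOXO3 are transcription factors, EZH2, DNMT1 and SIRT1 modify chromatin or other proteins, YWHAG and MTDH are adaptor proteins of signaling and RNA metabolism, and DKK1 is a secreted inhibitor of Wnt receptors.

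Mature miR-217 (hsa-miR-217-5p in RefSeq, from the hairpin gene MIR217 on the minus strand, GRCh38.p14 chr2:55983020-55983042) is shown first because its seed, in capitals, defines the sites. The commercial mimic's own sequence was not given in the sources used here. Below it stand the sites of the 4 genes whose mimic and control libraries occupied separate ranges, KLF5, YWHAG, SIRT1 and E2F3. The mimic libraries were the higher ones in E2F3 and the lower ones in the others. Over all genes tested, such separation was found in 13.5% (mimic lower) and 9.72% (mimic higher). These genes were picked for display by their values, so the listing does not show that site and change go together. Each line is 30 bases of the mRNA sense strand (GENCODE 29 transcripts, GRCh38) that end with the site, in capitals, and positions count from the first base after the stop codon.
miR-217: uACUGCAUcaggaacugauugga
KLF5, bases 934 to 940: catatgacaatgttgcatttatgATGCAGT
KLF5, bases 968 to 974: agtaccaaaacgttgaattgatgATGCAGT
KLF5, bases 1000 to 1006: tcatatatcgagatgttcgctcgTGCAGTA
YWHAG, bases 2442 to 2448: gttttggatgttgctatagtgacATGCAGT
YWHAG, bases 2605 to 2611: gcctttgtgctttttgtcatgttATGCAGT
SIRT1, bases 560 to 566: aactttttaaaatctcaaatgacATGCAGT
SIRT1, bases 1519 to 1526: atttatttggctacactaaagaATGCAGTA
E2F3, bases 66 to 72: atcatggaaccagaacatctgtcATGCAGT
E2F3, bases 2855 to 2861: acgtgtagatctgtaaataaaatTGCAGTA

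These sites lie in the last exon of each transcript. The KLF5 sites are at chr13:73076820-73076826, chr13:73076854-73076860 and chr13:73076886-73076892 on the plus strand, and the YWHAG sites at chr7:76327129-76327135 and chr7:76326966-76326972 on the minus strand. SIRT1 has its sites at chr10:67917153-67917159 and chr10:67918112-67918119, and E2F3 at chr6:20490496-20490502 and chr6:20493285-20493291, all on the plus strand. In KLF5 the 3 sites start 34 and 32 bases apart, whereas those of YWHAG start 163 bases apart and those of SIRT1 959 bases apart.

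The mRNA strand of the longest annotated 3'UTR of every gene was searched for 3 kinds of match, the heptamer ATGCAGT opposite bases 2 to 8, the octamer ATGCAGTA that adds an A opposite base 1, and the heptamer TGCAGTA opposite bases 2 to 7 with that A. The octamer contains both heptamers and was counted once, as an 8-base site. All 10 described targets held at least 1 such site, 18 in total. Any was found in 21.7% of the 9909 genes that were tested and have a 3'UTR in the annotation. Where a gene was described as a target because a seed match had been predicted, its site follows from that choice. How each of the 10 was found was not traced, so that these shares are a description only. SIRT1, EZH2, RUNX2 and FOXO3 had an 8-base site each, which 3.67% of the tested genes have. KLF5 had the most sites, 3, which 1.41% of the tested genes reach, while DNMT1, MTDH and RUNX2 had 1. The DNMT1 site is of the TGCAGTA kind (chr19:10133481-10133487), and 1 of its 2 annotated transcripts with a complete 3'UTR carries it.

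The share of genes with a site rose with 3'UTR length, from 5.61% of genes with a 3'UTR under 1000 bases to 51.5% of those with 3000 bases or more. EZH2 carries 2 sites in only 262 bases, at chr7:148807554-148807560 and chr7:148807426-148807433, and DKK1 carries 2 in 850 bases, the first of them starting 14 bases after the stop codon (chr10:52316821-52316827). The 3'UTR of FOXO3 is the longest, with 4982 bases, and its 2 sites lie at 84.7% and 97.5% of its length. The RUNX2 site (chr6:45550691-45550698, plus strand) is carried by 4 of its 6 annotated transcripts with a complete 3'UTR. Among the 10 genes, EZH2 alone had a match to bases 2 to 8 in the coding sequence, which 13.4% of the tested genes have. A match is a description of the letters, and binding was not measured. Another mature miRNA of the 2545 in the RefSeq table, hsa-miR-6807-3p, shares this seed.

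**Figure D1:**
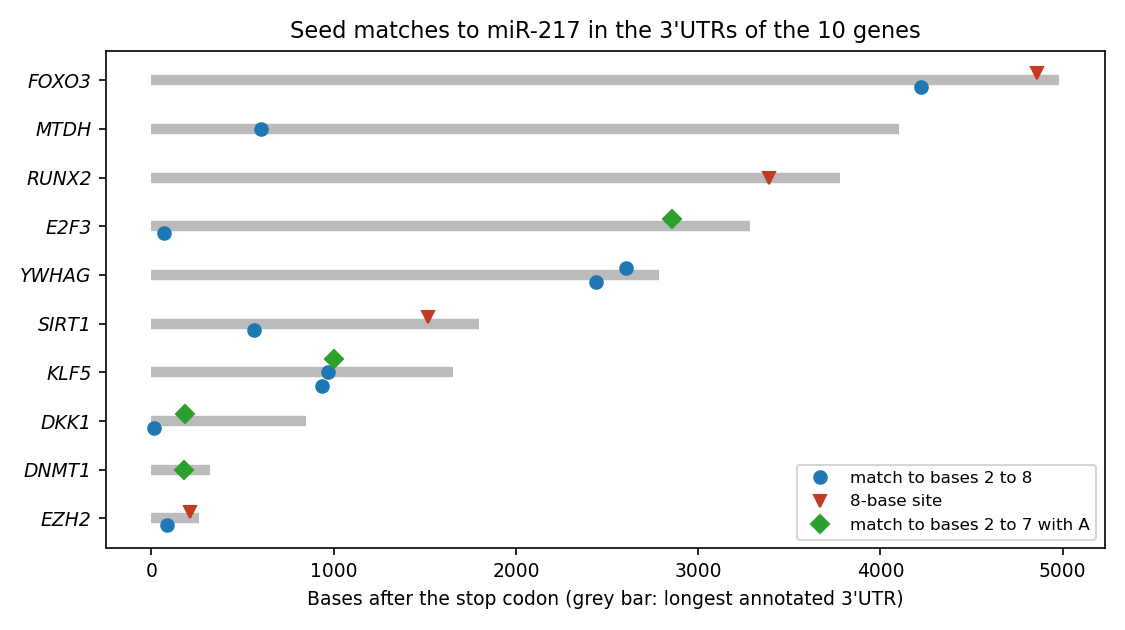
Seed matches to miR-217 along the longest annotated 3'UTR of each gene, in bases after the stop codon (grey bars), with a symbol for each kind of match; symbols of 1 gene are set at different heights for legibility. The 3 KLF5 sites lie between bases 934 and 1006, and the 2 EZH2 sites share a 3'UTR of 262 bases.

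A match to bases 13 to 16 of miR-217 (AGTT in the mRNA) within the 22 bases before the site was found before 1 of the 18 sites, that of MTDH, and before 9.15% of the 2919 sites in tested genes. No other pairing beyond the seed was searched. A and T made up 58.3% to 76.7% of the 30 bases on each side of the described targets' sites, with a median of 61.7% over all sites in tested genes. MTDH (chr8:97644179-97728770, plus strand) has its site at bases 599 to 605 after the stop codon, in 1 of 2 annotated transcripts with a complete 3'UTR.

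Expression was deposited as RPKM, reads scaled to exon length and to the library's reads on genes, so that levels can be compared between genes. The described targets differed widely in level. YWHAG was the highest with 77.9 and 79.5 RPKM in the mimic NC libraries, followed by DNMT1 at 43.2 and 43.6, EZH2 at 38.7 and 46.1, and KLF5 at 33.5 and 35.0. MTDH had 25.9 and 32.9 RPKM, SIRT1 12.4 and 14.04, and E2F3 6.64 and 7.24. DKK1 was at 6.32 and 4.11 RPKM, FOXO3 at 1.98 and 2.21, and RUNX2 at 0.0421 and 0.103. Among neighbours in this order only DNMT1 and EZH2 overlapped in the mimic NC libraries, and KLF5 and MTDH did so as well in the miR-217 mimic libraries.

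**Figure D2:**
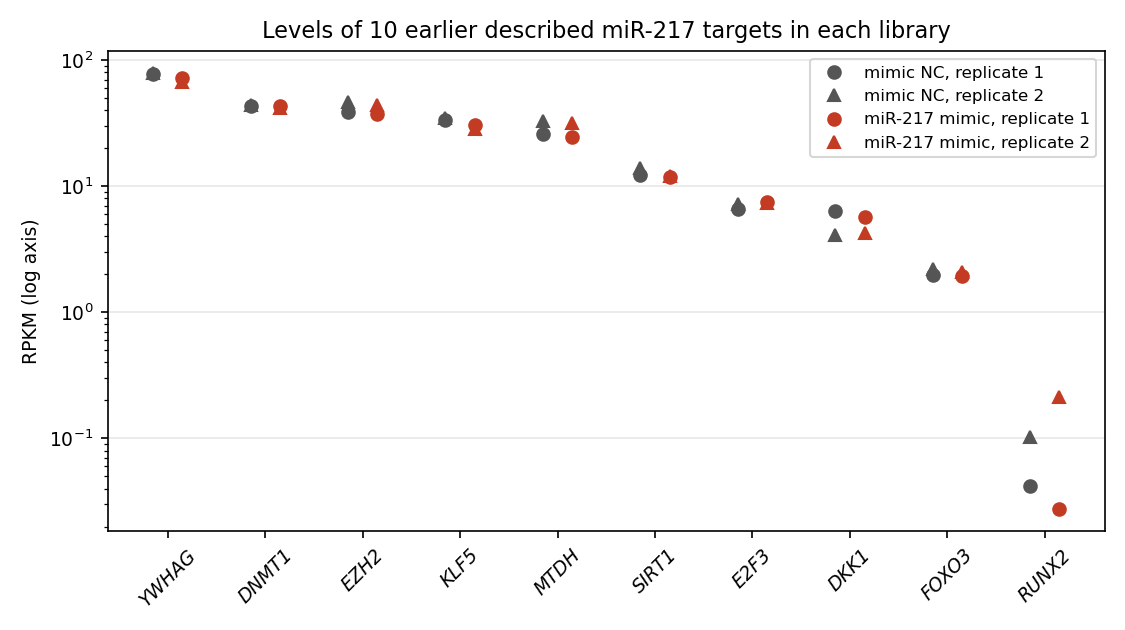
RPKM (log axis) of the 10 described targets in each library, ordered by the mean of the mimic NC libraries; grey symbols are mimic NC, red symbols miR-217 mimic, circles replicate 1 and triangles replicate 2. YWHAG sits near 80 RPKM and RUNX2 near 0.1, and for most genes the 4 symbols nearly coincide on this scale.

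Differences were tested with limma on log2(RPKM + 1) over 13871 genes, those averaging 1 RPKM or more, and all fold changes are given on that scale. RUNX2 fell under this limit, which left 9 described targets. The added 1 shrinks the fold changes of genes near 1 RPKM, so that those of low and high genes are not on equal terms. FOXO3, for instance, had -0.04, and -0.055 with 0.1 added in place of 1. An exact permutation test of 2 against 2 libraries cannot give a two-sided p under 0.333. None of the 9 genes passed: 0 had an unadjusted p under 0.05 (165 genes or 1.19% of all tested), and 0 had a Benjamini-Hochberg adjusted p under 0.05 (0 genes or 0% of all tested, also 0 with limma voom on the reads). With the replicate number as a block the count of unadjusted p under 0.05 among the 9 was 1 in limma (KLF5) and 2 in limma voom (KLF5 and YWHAG), and no adjusted p of theirs was under 0.05. Of the 9 genes 8 had a fold change below 0, as did 7714 of the 13871 genes tested and 62.2% of those with a site. The 9 genes had a median of -0.059 compared with -0.017 over all genes tested. Without mimic NC replicate 2 the number below 0 was 5, and the medians were -0.023 for the 9 genes and -0.031 for all genes. In bulk RNA a lower level in every cell and fewer cells that express the gene cannot be told apart.

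KLF5, a zinc finger transcription factor that promotes growth in epithelial tumors, had the lowest fold change. Control libraries had 33.5 and 35.0 RPKM and mimic libraries 30.3 and 28.3 RPKM of KLF5, based on 7554, 6448, 6304 and 3592 reads. Both miR-217 mimic libraries thus lay below both mimic NC libraries, and the mean went from 34.2 ± 1.04 to 29.3 ± 1.47 RPKM (SD, n = 2 each), a difference of -14.4%. The log2 fold change was -0.22 (standard error 0.12, 95% interval -0.53 to 0.09, limma adjusted p = 1), and 1146 of the 13871 genes were at or below it. Within replicate number 1 KLF5 differed by -9.39% (95% counting interval -12.4% to -6.30%) and within number 2 by -19.1% (-22.4% to -15.8%). These 2 intervals cover counting error only, and they do not overlap each other.

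YWHAG encodes 14-3-3 gamma, an adaptor that binds phosphorylated proteins. Its level was 77.9 and 79.5 RPKM in the control libraries and 72.6 and 66.5 RPKM in the mimic libraries, again without overlap of the groups. The mean went from 78.7 ± 1.15 RPKM to 69.6 ± 4.35 RPKM (SD, n = 2 each), with 8136 to 16923 reads in a library. The log2 fold change was -0.18 (standard error 0.13, 95% interval -0.51 to 0.15, limma adjusted p = 1). YWHAG differed by -6.76% within replicate number 1 and by -16.4% within number 2, so that, as for KLF5, the larger difference was that of number 2. Without miR-217 mimic replicate 2 the fold change of YWHAG was -0.11.

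SIRT1, an NAD-dependent deacetylase, was the other gene whose miR-217 mimic libraries were both below mimic NC. It had 12.4 and 14.04 RPKM in the control libraries, and 11.8 and 12 RPKM in those with the mimic. The log2 fold change was -0.14 (standard error 0.12, 95% interval -0.46 to 0.19), with -4.62% within replicate number 1 and -14.5% within number 2. For number 1 the counting interval of SIRT1 reached from -9.32% to 0.327%, and so included no difference. The fold change of SIRT1 was -0.05 without mimic NC replicate 2 and -0.22 without mimic NC replicate 1.

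E2F3, a cell cycle transcription factor with 2 sites, was the 1 tested target with a fold change above 0. It was at 6.64 and 7.24 RPKM in the control libraries, and at 7.53 and 7.30 RPKM, above both, in the mimic libraries. The log2 fold change was 0.09 (standard error 0.12, 95% interval -0.22 to 0.39), and it came mostly from replicate number 1, with 13.4% higher RPKM, whereas number 2 differed by 0.901% (counting interval -6.25% to 8.57%). The fold change of E2F3 was 0.03 without mimic NC replicate 1 and 0.14 without mimic NC replicate 2. E2F3P2, a pseudogene copy, had 5 to 21 reads in a library compared with 1231 to 2074 for E2F3, so that a small share of reads may be assigned to the wrong copy. Over all genes tested, both miR-217 mimic libraries were below both mimic NC libraries in 13.5% and above them in 9.72%, compared with 3 and 1 of the 9 described targets. Among the 2148 tested genes with any of the 3 kinds of site, the same shares were 17.4% and 7.36%.

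EZH2 (the methyltransferase of Polycomb repressive complex 2) had 38.7 and 46.1 RPKM in the control libraries, compared with 37.1 and 44.2 RPKM in the mimic libraries. MTDH, an oncoprotein that binds SND1, had 25.9 and 32.9 RPKM against 24.6 and 31.7 RPKM. Both genes followed the replicate number more than the transfection, being 0.25 and 0.34 higher on the log2 scale in the libraries numbered 2, while the fold changes with miR-217 mimic were -0.06 and -0.06 (95% intervals -0.48 to 0.36 and -0.56 to 0.45). Within each replicate number the differences were close to each other, -3.96% and -4.19% for EZH2, and -4.80% and -3.56% for MTDH. These 4 counting intervals stayed below 0, but they cover counting error only. How many of all genes had such intervals was not counted. With median centring the fold changes of EZH2 and MTDH were -0.033 and -0.033.

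DKK1 had the largest standard error of the 9 genes. Its 6.32 and 4.11 RPKM in the control libraries overlapped the 5.74 and 4.25 RPKM of the mimic libraries. The libraries numbered 2 were lower by 0.44 on the log2 scale, and the fold change with miR-217 mimic was -0.04 (standard error 0.23, 95% interval -0.65 to 0.57). The direction differed between the numbers, -9.16% in number 1 (counting interval -18.1% to 0.736%) and 3.30% in number 2 (-11.1% to 19.9%), on 306 to 808 reads in a library.

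FOXO3, a transcription factor held in the cytoplasm by AKT signaling, had 1.98 and 2.21 RPKM in the control libraries against 1.94 and 2.08 RPKM in the mimic libraries. Its fold change was -0.04 (95% interval -0.35 to 0.27). FOXO3B, a near-identical copy on chromosome 17, had 20 to 59 reads in a library compared with 524 to 885 for FOXO3, so that some reads may be assigned to the wrong copy. DNMT1, which copies DNA methylation to new strands, had 43.2 and 43.6 RPKM against 43.5 and 41.4 RPKM, a fold change of -0.03 (95% interval -0.34 to 0.28), on 13246 to 24504 reads in a library. Of its exon bases 0.704% are shared with S1PR2, and no other described target shared exon bases with a listed gene.

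RUNX2, the master factor of bone formation, was hardly expressed, with 20 and 40 reads in the control libraries and 12 and 57 reads in the mimic libraries. Within replicate number 1 its RPKM differed by -34.9% (counting interval -71.0% to 39.9%) and within number 2 by 107% (35.7% to 218%), in opposite directions. Without the limit on low values its fold change was 0.06 (standard error 0.09). At this depth no fold change of RUNX2 between the groups could be given with useful precision.

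**Figure D3:**
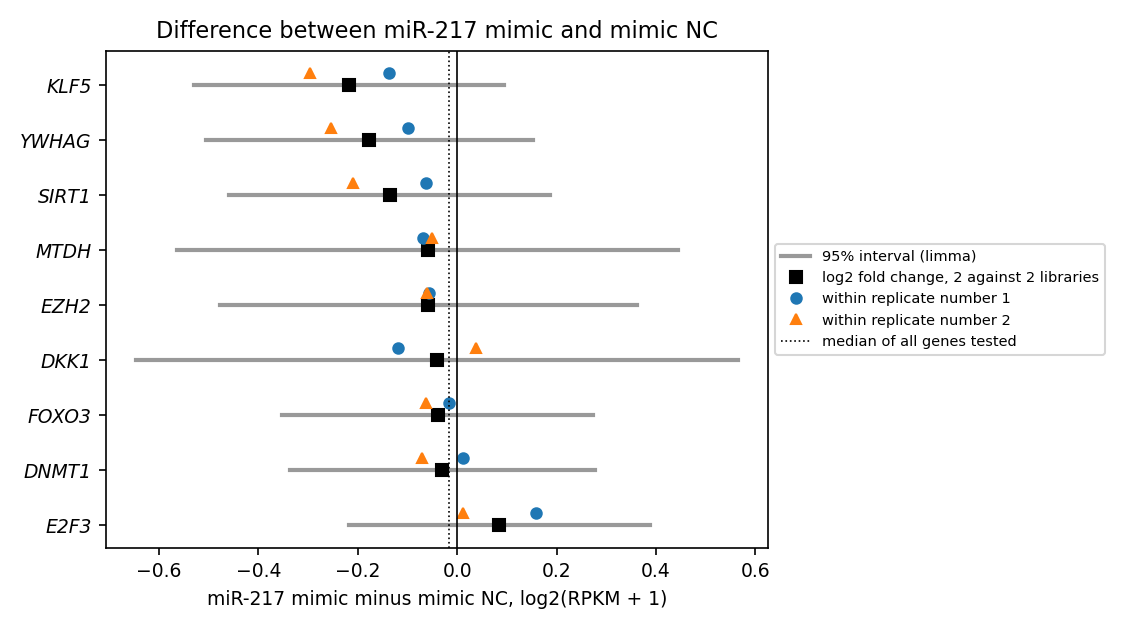
Difference between miR-217 mimic and mimic NC on the log2(RPKM + 1) scale for the 9 tested genes; squares are the fold change over all 4 libraries, grey bars its 95% interval from limma, circles and triangles the difference within replicate numbers 1 and 2, and the dotted line the median of all genes tested. Every interval includes 0, and KLF5 (-0.22) and E2F3 (0.09) are at the ends.

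Read gene by gene within the replicate numbers, 6 of the 9 tested targets were lower with miR-217 mimic in both numbers, KLF5, YWHAG, SIRT1, EZH2, MTDH and FOXO3. Over all genes tested this was so for 34.1%, and among those with a site for 42.8%. E2F3 alone among the 9 was higher in both numbers, compared with 25.4% of all genes, and DKK1 and DNMT1 differed in sign between them. The median difference of the 9 genes was -0.063 within number 1 and -0.062 within number 2. The genes had been chosen with earlier results of these data known, and the counts were therefore not tested.

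Among all tested genes with a 3'UTR, the median fold change was -0.0565 with an 8-base site, -0.035 with any site and -0.012 with none. It was -0.044 with 2 or more sites and -0.031 with 3 or more. The median 3'UTR lengths were 3255 bases with an 8-base site, 2937.5 with any site and 1025 with none. Site and length were thus not separated, and the part of each was not tested. For the 9 described targets, with standard errors from 0.12 to 0.23, the values by site are a description. SIRT1, EZH2 and FOXO3, which have an 8-base site, had fold changes of -0.14, -0.06 and -0.04, and KLF5 and YWHAG, without one, had -0.22 and -0.18. Among genes with 2 sites the fold changes went from -0.18 for YWHAG to 0.09 for E2F3, and those with 1 site, MTDH and DNMT1, had -0.06 and -0.03. For orientation, SOS1, the target on which the study centred, had a fold change of -0.34 in the same fit, below all 9 genes. Its standard error was 0.13, and its limma interval, -0.68 to 0.006, included no difference. The paper took its candidates from predicted targets that were lower with miR-217 mimic in this RNA-seq. Among these it chose SOS1 by RT-qPCR after knockdown and overexpression of the circular RNA under study. It then examined SOS1 with luciferase reporters of its 3'UTR and with western blots. A low value of SOS1 here thus follows from how the candidates were taken, and its place below the 9 genes is a description only.

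The replicate number separated the libraries along the first principal component, which held 71.3% of the variance, and the difference between numbers exceeded that between groups in 69.6% of the genes tested. Among the described targets this held for DKK1, EZH2, MTDH and FOXO3 but not for KLF5, YWHAG, SIRT1, DNMT1 or E2F3.

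**Figure D4:**
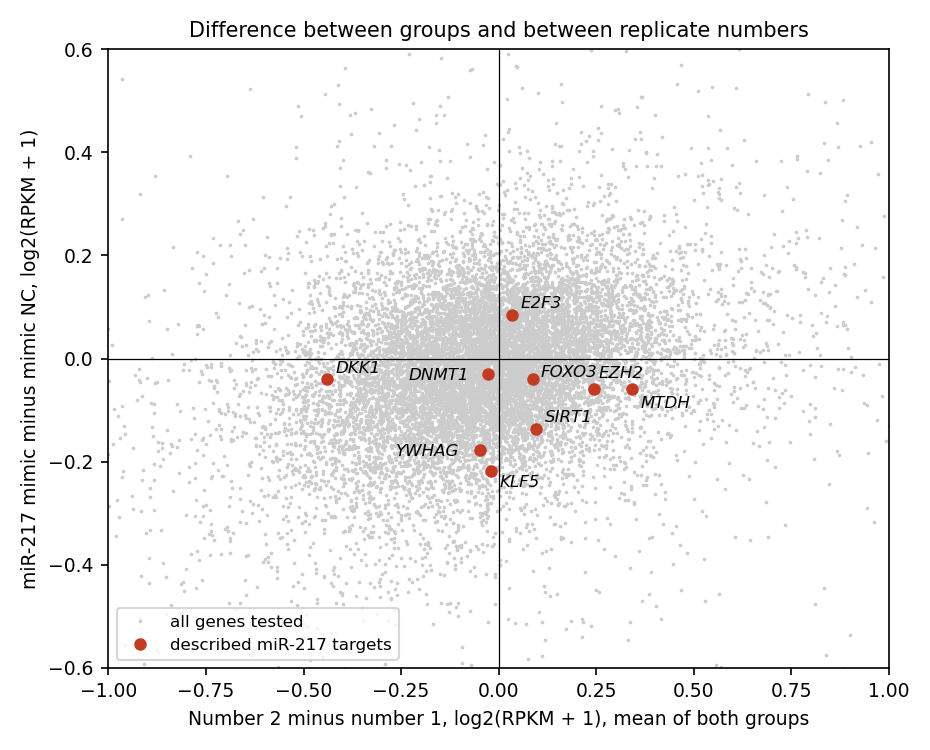
Difference between the groups (vertical axis) against the difference between replicate numbers (horizontal axis, number 2 minus number 1), both on the log2(RPKM + 1) scale, for all genes tested (grey, 242 of them beyond the axes) and the described targets (red). KLF5, YWHAG and SIRT1 lie lowest, and DKK1 and MTDH are farthest from 0 along the horizontal axis (-0.44 and 0.34).

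Markers of the cell line were looked at, without a reference sample of the line beside them. VIM, CD44, AXL, MSN, CAV1 and KRT18, which this line expresses, were all at 5.17 RPKM or more. Across the libraries KRT18 was at 141.9 to 302.9 RPKM, MSN at 93.5 to 156.7 and VIM at 27.9 to 36.9. CD44 was at 13.5 to 26.0 RPKM, AXL at 6.2 to 8.7 and CAV1 at 5.17 to 7.92. Their summed level, led by KRT18 and MSN, was 523 and 307 RPKM in mimic NC replicates 1 and 2. It was 502 and 323 RPKM in miR-217 mimic replicates 1 and 2. These levels do not settle the identity of the cells. Of 8 genes that are low or absent in the line and mark luminal breast cells, PGR and TFF1 were not listed and have no value. ESR1, CDH1, GATA3, GREB1 and ESRP1 were under 1 RPKM in each library, with ESRP1 at 0 reads in 3 of them, and ERBB2 was at 2.27 to 3.23 RPKM. Their sum was 2.60 to 3.81 RPKM. Against the label, CDKN2A, known as homozygously deleted in MDA-MB-231, gave 1488 to 3318 reads per library (10.5 to 13.2 RPKM), and its bearing on the results was not tested. Mature miR-217 was not measured, and of its host transcript MIR217HG only 2 reads were found, in miR-217 mimic replicate 1.

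Relatives and partners of the described targets were examined next, 95 genes in lists of families, complexes and pathways, of which 66 were tested. Of these 37 were lower and 29 higher with miR-217 mimic (median -0.025), beside 7714 lower and 6157 higher of all genes tested, and 0 passed an unadjusted p under 0.05 in limma, as did 1.19% of all genes. The 14-3-3 family was tested in full, with 4 of 6 genes below 0. Its lowest member was YWHAB (45.2 and 46.7 RPKM against 43.3 and 39.6, fold change -0.15), which has an 8-base site, and its highest YWHAH (0.07), which has ATGCAGT. Of the KLF and SP factors 5 of 10 were lower, from SP1 at -0.15 to KLF4 at 0.17. KLF5 was lower than all 10, among which KLF11 alone holds a site, with a fold change of 0.05.

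Among the Wnt receptors that DKK1 blocks or that work beside them, 4 of 6 were lower, from FZD2 (-0.19) to FZD6 (0.02). LRP6, the co-receptor bound by DKK1, has an 8-base site and had 4.31 and 4.85 RPKM in the control libraries against 4.11 and 3.96 RPKM. All 9 Wnt target genes of the list were under the limit of 1 RPKM, so that no readout of the pathway was had from them. Of the sirtuins other than SIRT1, 2 of 4 were lower, with SIRT6 at -0.06 and SIRT7 at 0.13, and these 4 genes hold no site.

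Polycomb repressive complex 2 and its cofactors had 6 of 10 genes below 0, from EED (-0.12) to RBBP4 (0.05), a range of fold changes that includes EZH2. Of the genes that write or erase DNA methylation, TET2 was lowest (1.54 and 1.33 RPKM against 1.29 and 1.04, fold change -0.17, 2 sites) and UHRF1, the partner that brings DNMT1 to DNA, highest (24.95 and 23.7 RPKM against 26.8 and 27.5, 0.15). Of the E2F and DP factors other than E2F3, 6 of 9 had a fold change above 0, from E2F2 at -0.09 to E2F8 at 0.19. The MTDH partners SND1 and AGO2 had -0.02 and 0.03, and AGO2 holds 3 ATGCAGT sites and 1 TGCAGTA site. Sites were thus found in relatives on both sides of 0.

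FOXO4 had the lowest fold change of all relatives, -0.39 (standard error 0.31, limma adjusted p = 1). Its RPKM was 12.4 and 9.14 in the control libraries and 10.7 and 5.70 in the mimic libraries, so that the groups overlapped, and its 3'UTR holds ATGCAGT. FOXO1 was at 0.06. Of 9 tested FOXO target genes 6 were lower, from KLHL24 at -0.17 to GADD45A at 0.28, the latter with a standard error of 0.58. The RUNX partners CBFB and RUNX3 had -0.08 and -0.03, and of the RUNX2 targets only VEGFA was tested (-0.32, standard error 0.46).

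**Figure D5:**
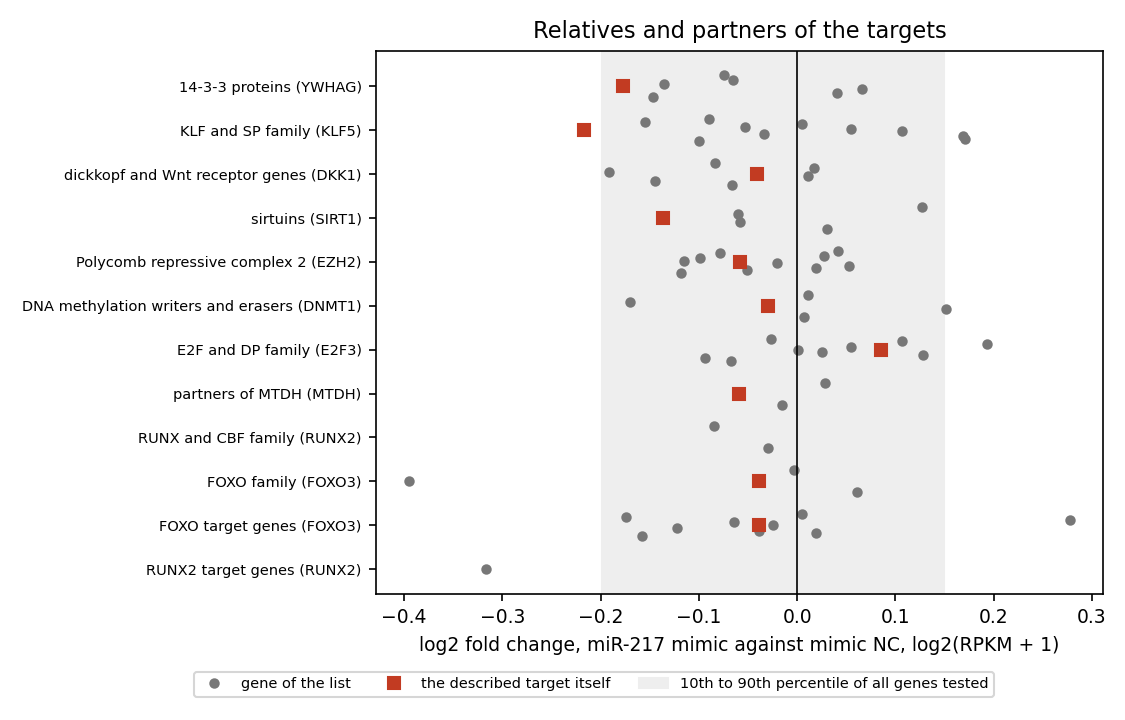
Fold change with miR-217 mimic on the log2(RPKM + 1) scale for the tested genes of each list (grey points) and the described target it belongs to (red square; RUNX2 was not tested); the shaded band spans the 10th to the 90th percentile of all genes tested (-0.20 to 0.15). KLF5 (-0.22), FOXO4 (-0.39) and VEGFA (-0.32) lie below the band, and GADD45A (0.28), E2F8 (0.19), KLF4 (0.17), KLF6 (0.17) and UHRF1 (0.15) above it.

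Genes nearest in pattern were sought for the 3 targets named in the paper, by the distance over the 4 libraries of log2(RPKM + 1) centred on each gene's mean. For KLF5 they were GIPC1, ZNF503 and POP7 (distances 0.011 to 0.025), for YWHAG ARHGAP19, C1RL and HOMEZ (0.0042 to 0.017), and for DKK1 OPN1SW, RP11-1079K10.4 and TFAP2C (0.016 to 0.031). They were not alone, as 29, 62 and 18 of 13870 genes lay within 0.05 of KLF5, YWHAG and DKK1. With 4 libraries such likeness says little about shared control.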

How the data were processed

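RNA-seq of 4 MDA-MB-231 libraries, 2 with mimic NC and 2 with miR-217 mimic, was used, grouped and numbered by the labels. The authors deposited RPKM values for 32955 genes with exon coordinates and length. Trimmomatic 0.36, featureCounts of Subread 1.5.1, edgeR 3.12.1 and hg38 are named in the submitters' processing notes, and the aligner and annotation were not given in the sources used here. After multiplication by length, 100% of nonzero values were whole multiples of 1 read (tolerance 0.01), from which reads were recovered. Intervals from reads are exact conditional binomial 95% intervals and cover counting error only.

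Values were tested with limma 3.58.1 in R 4.3.3 (lmFit, eBayes with trend) on log2(RPKM + 1), two-sided, without a replicate term, after a limit of mean RPKM of at least 1, and Benjamini-Hochberg adjustment ran over all genes tested. The fits were also tested on simulated data with known changes, in which the fit without the limit on low values made no adjusted call. The simulated libraries held no difference between replicate numbers, unlike the data. The members and lists were chosen with earlier results of these data known. The text names all 10 targets, the lowest and highest tested gene of each list, the 3 genes nearest in pattern to KLF5, YWHAG and DKK1, SOS1, and markers of the line. Genes outside this rule (LRP6, KLF11, KLF6, FOXO3B, E2F3P2, S1PR2, CDKN2A, MIR217HG) were named after their values were seen. The longest 3'UTR of each gene with a complete coding end was taken from GENCODE 29 (GRCh38). Alternatives were a pseudocount of 0.1, no limit, a limit of 5 in place of 1, median centring, a replicate block, limma voom on recovered reads with and without that block, and leaving out each library. Sequences were handled with Python 3.11.15 and plots made with matplotlib 3.10.9.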

Additional observations from a re-analysis of the deposited data

How the results depend on the processing

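No described target passed an adjusted p of 0.05 under any of the settings run, where the smallest limma adjusted p of a target ranged from 0.501 to 1. Genes with an unadjusted p under 0.05 numbered 165 in the reported fit, 877 without the limit on low values, 48 at a mean RPKM of at least 5 and 82 with limma voom on the recovered reads. The count was 1046 with a replicate block and 1261 with voom and the replicate block, and the last gave 1 gene with an adjusted p under 0.05. Of the described targets 0 had such an unadjusted p in the reported fit, 1 with the replicate block (KLF5, limma adjusted p = 0.633) and 2 with voom and the replicate block (KLF5 and YWHAG). The deviations of same-numbered libraries correlated at 0.68, but the labels do not say what the numbers mark and there are only 2 pairs, so that the fit without the block was kept as the reported one.

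Leaving out 1 library at a time, which leaves a lone library assumed to vary like the other group, gave 93 (without mimic NC replicate 2) to 866 (without miR-217 mimic replicate 1) genes with an unadjusted p under 0.05. It gave 5 (without mimic NC replicate 2) to 7 (without mimic NC replicate 1) targets below 0. The fold change ranged from -0.30 to 0.22 for DKK1, -0.182 to 0.065 for EZH2, -0.24 to 0.12 for MTDH, -0.094 to 0.016 for FOXO3 and -0.065 to 0.0052 for DNMT1, which all changed sign. Median centring moved the median of all genes from -0.017 to 0.0086 and that of the targets to -0.033. With any annotated 3'UTR 10 genes held a site, and in the coding sequence 1 did (13.4% of tested genes have a match to bases 2 to 8 there). The cause of these shifts was not tested. At 12 to 57 reads in a library, depth limits what can be said of RUNX2.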
